A study of Mus musculus with 32 samples.

Results

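Vcam1, Icam1, Icam2, Sele, Selp, Selplg, Madcam1, and Alcam, the genes of 8 leukocyte adhesion molecules, were followed in 3 cell types sorted from mouse islets, namely macrophages (MΦs), endothelial cells (ECs), and β cells. They were chosen by gene symbol from the 22850 genes of the table, and all 8 had a row of their own. The islets came from adult C57BL/6 mice with 3 transgenes, RIP-rtTA, TetO-VEGF-A, and MIP-GFP, which the No Dox controls carried as well. The rat insulin promoter of RIP-rtTA acts in β cells, so doxycycline (Dox) in the drinking water switches on human VEGF-A there, while the mouse Ins1 promoter of MIP-GFP labels β cells with GFP. No Dox mice were untreated, 1wk Dox mice took Dox for 1 week, and 1wk WD mice had Dox for 1 week and were sampled 1 week after its withdrawal. ECs were sorted on CD31, MΦs on CD11b, and β cells as GFP+ cells with neither, and islets from several mice went into each sample. The 32 samples were 4 No Dox, 5 1wk Dox, and 3 1wk WD β cell libraries, 4, 1, and 5 EC libraries, and 4, 2, and 4 MΦ libraries. The comparisons ask how each cell type changes when VEGF-A is switched on and off again. Mice that received Dox without the VEGF-A transgene were not analysed here.

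Leukocytes leave the blood in steps. The selectins of activated endothelium, E-selectin (Sele) and P-selectin (Selp), catch leukocytes by sugars on P-selectin glycoprotein ligand 1 (Selplg) and let them roll. Leukocyte integrins then bind endothelial members of the immunoglobulin superfamily and stop the cell: LFA-1 binds ICAM-1 and ICAM-2, VLA-4 binds VCAM-1, and the integrin of gut-homing lymphocytes binds MAdCAM-1. ALCAM binds CD6 on T cells and itself. VCAM-1 and ICAM-1 are made by MΦs as well as by endothelium, and inflammatory cytokines raise several of these genes through NF-κB.

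RefSeq promoter sequences (table on GRCm38.p6) were held for 5 of the 8 members, Alcam, Icam1, Madcam1, Sele, and Selp. The 250 bases before the start of transcription are given 5′ to 3′ for the 4 cytokine-inducible ones, whose values in ECs are given below. Each sequence was matched once on its chromosome in mm9, the build of the deposited table. The positions are chr9:20820134-20820383 for Icam1, chr10:79127054-79127303 for Madcam1, chr1:165978115-165978364 for Sele, and chr1:166045145-166045394 for Selp, all on the plus strand. Capitals mark matches to 3 motifs that were chosen with the sequences in view and searched on both strands. They are GGAAANNCC, the letters of some forms of an NF-κB site, TGANTCA, the letters of an AP-1 site, and TATAAA.
Icam1: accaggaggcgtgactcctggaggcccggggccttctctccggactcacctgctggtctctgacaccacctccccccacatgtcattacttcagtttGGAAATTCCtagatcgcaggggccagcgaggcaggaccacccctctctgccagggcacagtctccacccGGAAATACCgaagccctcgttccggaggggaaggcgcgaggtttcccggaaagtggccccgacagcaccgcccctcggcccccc
Madcam1: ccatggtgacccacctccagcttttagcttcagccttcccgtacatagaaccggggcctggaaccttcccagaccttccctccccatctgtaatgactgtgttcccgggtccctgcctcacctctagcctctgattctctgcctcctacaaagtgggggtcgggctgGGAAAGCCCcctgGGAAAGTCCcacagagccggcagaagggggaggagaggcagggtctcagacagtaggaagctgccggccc
Sele: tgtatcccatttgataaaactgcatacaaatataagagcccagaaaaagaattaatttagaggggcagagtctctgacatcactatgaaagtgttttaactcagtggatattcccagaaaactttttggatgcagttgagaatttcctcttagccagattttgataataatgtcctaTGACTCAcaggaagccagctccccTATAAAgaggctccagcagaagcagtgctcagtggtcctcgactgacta
Selp: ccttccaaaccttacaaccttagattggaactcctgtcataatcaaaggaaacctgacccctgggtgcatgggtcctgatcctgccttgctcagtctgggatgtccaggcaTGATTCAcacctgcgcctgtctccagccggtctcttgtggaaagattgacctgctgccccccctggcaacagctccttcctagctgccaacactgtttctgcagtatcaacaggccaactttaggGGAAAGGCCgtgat
Icam1 held GGAAATTCC at 153 to 145 and GGAAATACC at 84 to 76 bases before the start, and Madcam1 held GGAAAGCCC at 83 to 75 and GGAAAGTCC at 70 to 62. Selp held GGAAAGGCC at 14 to 6 and TGATTCA at 139 to 133 bases before the start. In Sele the matches were TGACTCA at 73 to 67 and TATAAA at 49 to 44. Of 32851 promoters of the same length, 4.93% held GGAAANNCC, 6.75% held TGANTCA, and 12.4% held TATAAA. These matches describe letters only, and binding was not measured. Other forms of an NF-κB site were not searched, so the lack of a GGAAANNCC match in Sele does not show that it has no such site.

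The deposited value of a gene is a score, the authors' normalized expression rounded to a whole number, with 1 as the lowest. The number of reads behind a score is not known, which limits what a low score can show. Summed over all genes, a library held between 23465985 and 53441769. Marker genes followed the gates: 12 EC markers summed to 477708 to 757221 in EC libraries and to 1569 to 66356 in the others, and 10 MΦ markers summed to 278588 to 463507 in MΦ libraries and to 528 to 9454 in the others. The sum of 10 β cell markers was 513966 to 10941261 in β cell libraries and 371 to 47759 elsewhere. β cell libraries also held pericyte and stromal markers, with a sum over 11 genes of 1036 and 1126 in No Dox replicates 1 and 2 and of 26130 to 544937 in the other 10. Library codes of a later number run stood on 4 libraries, namely both MΦ libraries and the EC library at 1wk Dox and replicate 3 of β cells at 1wk WD. In MΦs and in ECs, this code run and 1wk Dox cannot be told apart.

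Of the 8 genes, Vcam1 was called higher in MΦs at both 1wk Dox and 1wk WD, while Vcam1 and Selp were called higher in ECs at 1wk WD, all against No Dox. A gene was called at a fold change of 2 or more with a Benjamini-Hochberg adjusted p under 0.05 in limma, adjusted over all genes tested on log2(score + 1). The calls were 2 of 8 members in ECs at 1wk WD, where 1.76% of all genes tested were called and 1.28% were called higher. In MΦs they were 1 of 7 members tested at 1wk Dox, against 2.26% of all genes (1.61% higher), and 1 of 7 at 1wk WD, against 0.626% (0.42% higher). The median log2 change over the members tested was 0.71 in ECs, 0.40 in MΦs at 1wk Dox, and 0.52 in MΦs at 1wk WD, and the medians of all genes were 0.0025, 0.035, and 0.0029. In β cells 0 of 7 members tested were called at 1wk Dox or at 1wk WD against No Dox, where 0.0122% and 0% of all genes were called. Selp in β cells and Madcam1 in MΦs stayed under the mean score of 20 that a gene needed in one or more groups and were not tested over time there. Sele in MΦs passed only through 1wk WD (mean 39, with 102 in replicate 1). Madcam1 in β cells passed only through 1wk Dox (mean 28, with 110 in replicate 1). Without those libraries they would not have been tested, so their part in the counts and medians follows from the filter and is a description.

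**Figure D1:**
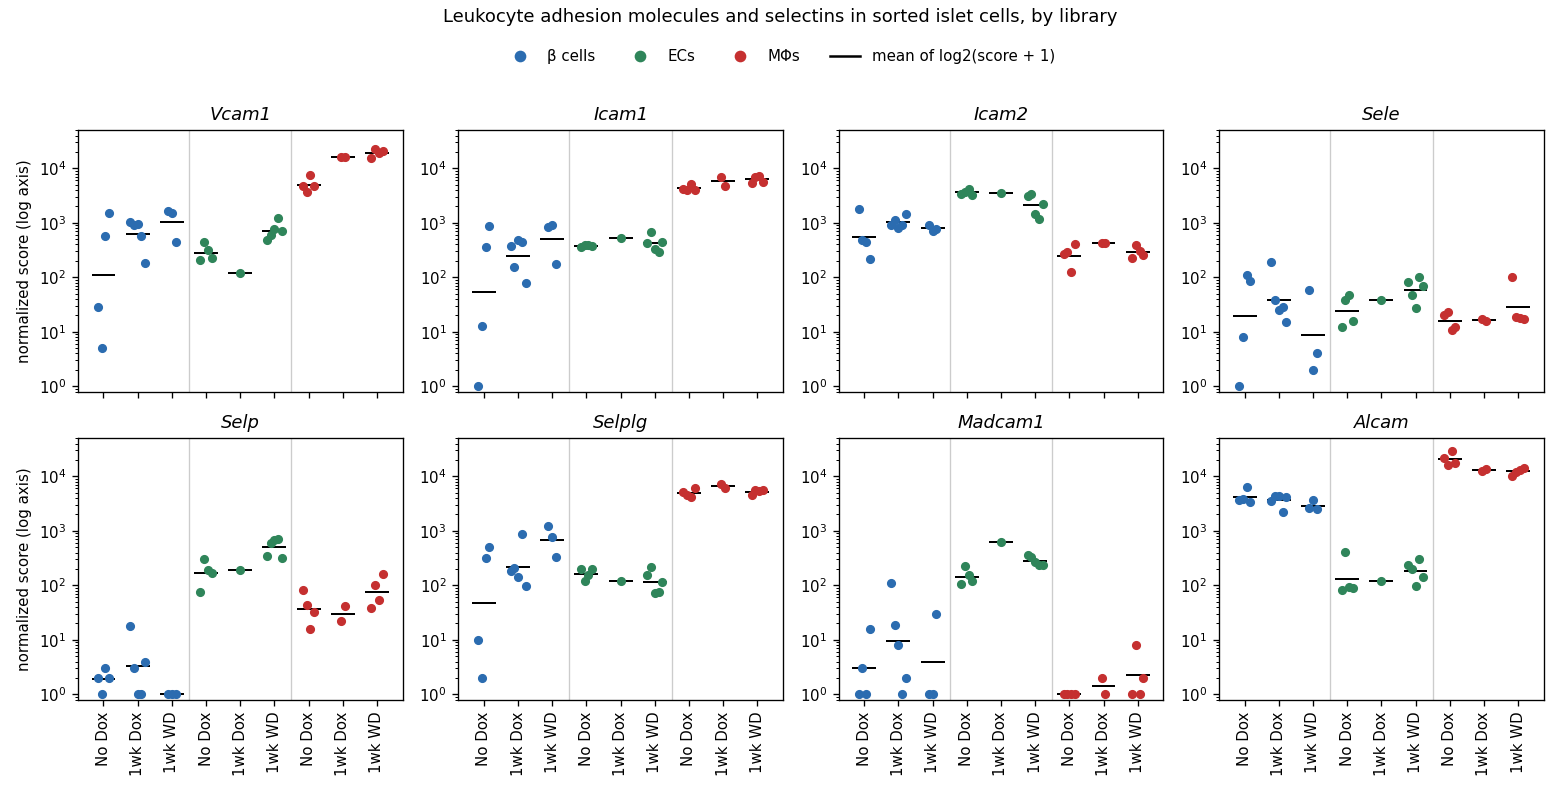
Score of each of the 8 genes in every library, on a log axis, by cell type (colour) and time point, with a bar at the mean of log2(score + 1) of each group. Vcam1 in MΦs lay between 3745 and 7484 at No Dox and between 15724 and 22425 at 1wk WD, and the 4 No Dox MΦ libraries of Madcam1 all lie at 1.

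At No Dox the cell types divided the members among them. ECs and MΦs differed in 6 of 8 members, against 33.5% of all genes tested, with Icam2, Selp, and Madcam1 higher in ECs and Vcam1, Selplg, and Alcam higher in MΦs. MΦs and β cells differed in 5 of 8 (43.2% of all genes), all of them higher in MΦs, as were 19.7% of all genes. ECs and β cells differed in 4 of 8 (37.7%), with Icam2, Selp, and Madcam1 higher in ECs and Alcam higher in β cells. At 1wk WD the calls were 7 of 8 for ECs and MΦs (40.3% of all genes), 6 of 8 for MΦs and β cells (46.2%), and 6 of 8 for ECs and β cells (39.9%). At No Dox the libraries did not overlap in 6 members for ECs and MΦs (49.8% of all genes), in 4 for ECs and β cells (48.8%), and in 5 for MΦs and β cells (43.9%). At 1wk WD they did not overlap in 7, 5, and 6 members in that order (53.8%, 45.7%, and 55.9% of all genes). A difference between cell types is thus common in this table. Madcam1 passed the filter on low scores in these fits through ECs alone, so its calls follow from that choice and are a description. In bulk samples a different number of cells of a type and a different amount of RNA per cell cannot be told apart.

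E-selectin is the selectin that endothelium makes only after activation. Sele (chr1:165978365-165987808, ENSMUSG00000026582) scored 12, 39, 47, and 16 in ECs at No Dox, 38 in the single 1wk Dox EC library, and 81, 48, 27, 103, and 68 at 1wk WD. The time points overlapped, since 1wk WD replicate 3 lay below No Dox replicates 2 and 3. The log2 change in ECs at 1wk WD was 1.24 ± 0.51 (SE), with an adjusted p of 0.184 in limma. MΦs scored 20, 23, 11, and 12 at No Dox, 17 and 16 at 1wk Dox, and 102, 19, 18, and 17 after 1wk WD, so that replicate 1 alone stood apart. β cells scored 1, 8, 112, and 85 at No Dox, 194, 39, 25, 28, and 15 with Dox, and 58, 2, and 4 after withdrawal, and the time points overlapped widely. At No Dox no pair of cell types passed the test for Sele (adjusted p from 0.707 to 0.841). At 1wk WD ECs exceeded β cells by 2.65 ± 0.92 on the log2 scale (adjusted p = 0.0273 in limma), with the highest β cell library above the lowest EC library. This Sele call was lost with a pseudocount of 20 (1.23, adjusted p = 0.0574), with no filter, with weights per cell type (adjusted p = 0.106), and without 1wk WD replicate 2 or 3 of β cells or replicate 1 or 4 of ECs (1.82 to 2.54, adjusted p up to 0.142).

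P-selectin is kept in endothelial storage granules together with von Willebrand factor, and in platelets. Selp (chr1:166045395-166080157, ENSMUSG00000026580) scored 77, 306, 190, and 171 in ECs at No Dox, 191 in the 1wk Dox library, and 343, 596, 668, 713, and 316 at 1wk WD. Each of the 5 withdrawal libraries lay above each of the 4 No Dox libraries, although only by 10 between the nearest pair. The same held for 5.75% of all genes in this comparison. Selp rose by 1.58 ± 0.37 on the log2 scale, a fold of 2.98 (adjusted p = 0.0345 in limma). MΦs scored 81, 44, 16, and 32 at No Dox, 22 and 42 at 1wk Dox, and 39, 101, 53, and 161 after 1wk WD, and the groups overlapped (log2 changes of -0.27 ± 0.76 and 1.03 ± 0.62, adjusted p of 0.882 and 0.416 in limma). β cells were at or near the lowest score, with 2, 1, 3, and 2 at No Dox, 18, 3, 1, 1, and 4 at 1wk Dox, and 1 in all 3 libraries at 1wk WD. The order at No Dox was ECs, MΦs, and β cells, and each step passed the test (ECs over MΦs by 2.14 ± 0.59, adjusted p = 0.0109 in limma), although the lowest EC library, at 77, lay under the highest MΦ library, at 81. The same order held at 1wk WD, where ECs exceeded MΦs by 2.69 ± 0.47 (adjusted p = 0.000256) without overlap. No fold against β cells is given, because it would rest on the lowest scores.

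P-selectin glycoprotein ligand 1 is the leukocyte partner of both selectins. Selplg (chr5:114267807-114280510, ENSMUSG00000048163) scored 5173, 4490, 4113, and 6109 in MΦs at No Dox, 7207 and 6237 at 1wk Dox, and 4641, 5590, 5421, and 5522 after 1wk WD. Both 1wk Dox libraries lay above all No Dox libraries, a difference of 0.45 ± 0.17 on the log2 scale that was not called (adjusted p = 0.145 in limma). Groups without overlap were common in that comparison, at 30.9% of all genes tested. The change at 1wk WD was 0.10 ± 0.14 (95% interval -0.19 to 0.40). ECs scored 197, 118, 154, and 200 at No Dox, 119 at 1wk Dox, and 155, 216, 72, 77, and 114 after 1wk WD, with a log2 change of -0.49 ± 0.34 at 1wk WD (adjusted p = 0.409 in limma). MΦs exceeded ECs at No Dox by a log2 difference that the fit gave as -4.90 ± 1.32 for ECs minus MΦs (adjusted p = 0.00978). At 1wk WD that difference was -5.49 ± 0.38 (adjusted p = 4.05e-08), and β cells lay between, above ECs and below MΦs, without overlap with either.

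VCAM-1 is the ligand of VLA-4 and is raised on inflamed endothelium. Vcam1 (chr3:115812938-115832606, ENSMUSG00000027962) scored 4759, 3745, 7484, and 4822 in MΦs at No Dox, 16233 and 15948 at 1wk Dox, and 15724, 22425, 19505, and 20855 after 1wk WD. Every library of both later time points lay above every No Dox library, by a wide margin. Groups did not overlap, in either direction, in 30.9% of all genes at 1wk Dox and in 9.24% at 1wk WD. Vcam1 rose 3.19-fold at 1wk Dox (log2 change 1.68 ± 0.23, adjusted p = 0.00407 in limma) and 3.86-fold at 1wk WD (1.95 ± 0.19, adjusted p = 0.00103). Between 1wk Dox and 1wk WD the change was 0.27 ± 0.23, with a 95% interval of -0.22 to 0.77 and an adjusted p of 0.798. That comparison had 0 of 7 members called in limma, against 0.0866% of all genes, and 0 at an unadjusted p under 0.05. The 1wk Dox call rests on 2 libraries, and without replicate 4 the log2 change of 1.66 had an adjusted p of 0.193, with 1 library left in the group and assumed to vary like the others. With a block for the replicate number the 1wk Dox change was 1.67 and was not called (adjusted p = 0.161 in limma). The call at 1wk WD held without each library in turn (log2 change from 1.81 to 2.14). Acinar markers, 8 genes in all, summed to 26288 to 12184621 in MΦs at No Dox and to 1092 to 220089 later. Without No Dox replicates 2 and 4, which held the highest acinar sums, Vcam1 in MΦs was called, with log2 changes of 1.43 at 1wk Dox (adjusted p = 0.00641) and 1.71 at 1wk WD (adjusted p = 0.0160). The 2 No Dox libraries kept had acinar sums of 105886 and 26288, above both 1wk Dox libraries. Of 4 platelet markers tested in MΦs, Pf4 (log2 change 2.43, adjusted p = 0.0101) and Ppbp (4.80, 0.0298) were called higher at 1wk Dox, and Pf4 (1.87, 0.0259) at 1wk WD. EC markers summed to 1792 to 2475 in MΦs at No Dox, 3760 and 4764 at 1wk Dox, and 2176 to 3361 after 1wk WD, and 1 of 11 tested, Erg, was called higher at 1wk Dox. Pericyte and stromal markers in MΦs had a median log2 change of 0.72 at 1wk Dox (8 of 11 above 0) and 1.04 at 1wk WD (11 of 11), with 0 called. The part of acinar, platelet, EC, or stromal RNA in the Vcam1 result was not tested. In no EC or β cell library did Vcam1 reach the lowest MΦ score, the highest being 1622 in β cells.

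ECs scored lower for Vcam1 than MΦs did. Their scores were 207, 450, 315, and 224 at No Dox, 122 in the single 1wk Dox library, and 480, 598, 776, 1228, and 704 at 1wk WD. The 1wk Dox library was the lowest of the 10 and all withdrawal libraries lay above No Dox, the latter as for 5.75% of all genes. Vcam1 rose 2.52-fold in ECs at 1wk WD (log2 change 1.33 ± 0.28, adjusted p = 0.0228 in limma). ECs lay below MΦs at both time points tested, by a log2 difference of -4.14 ± 1.36 at No Dox (adjusted p = 0.0272) and of -4.76 ± 0.36 at 1wk WD (adjusted p = 8.21e-08). The No Dox call was lost with no filter (adjusted p = 0.0611) and without replicate 1, 3, or 4 of either cell type (adjusted p from 0.0522 to 0.064). Against β cells the EC difference was 1.37 ± 1.36 at No Dox (adjusted p = 0.427) and -0.53 ± 0.39 at 1wk WD (adjusted p = 0.271), neither of them called. Without β cell 1wk WD replicate 3 the latter was -1.13 with an adjusted p of 0.00368, which is a call.

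ICAM-1 is bound by LFA-1 and by Mac-1 on leukocytes. Icam1 (chr9:20820404-20833241, ENSMUSG00000037405) scored 4220, 4016, 5186, and 4069 in MΦs at No Dox, 6894 and 4772 at 1wk Dox, and 5492, 6856, 7105, and 5723 after 1wk WD. The withdrawal libraries lay above all No Dox libraries, by a log2 difference of 0.52 ± 0.15 that missed both thresholds (adjusted p = 0.0971 in limma). Groups did not overlap in 9.24% of all genes of that comparison. In ECs the scores were 362, 389, 390, and 382 at No Dox, 518 at 1wk Dox, and 430, 666, 334, 296, and 453 after 1wk WD. The No Dox libraries stood close together and the withdrawal libraries fell on both sides of them, so the log2 change was 0.14 ± 0.22 (95% interval -0.33 to 0.60, adjusted p = 0.741). Icam1 was thus not called in the EC libraries in which Vcam1 and Selp were, and the upper bound of its interval lies under the log2 change of 1 that a call needs. MΦs exceeded ECs in every library at No Dox, but the difference of -3.51 ± 1.48 for ECs minus MΦs was not called (adjusted p = 0.0756), in a fit whose spread is shared with β cells. With weights for each cell type it was called (adjusted p = 0.00422), and at 1wk WD the difference was -3.90 ± 0.41 (adjusted p = 2.57e-06).

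ICAM-2 is held by resting endothelium at all times. Icam2 (chr11:106238970-106249389, ENSMUSG00000001029) scored 3364, 3700, 4160, and 3272 in ECs at No Dox, 3496 at 1wk Dox, and 3069, 3377, 1439, 1174, and 2216 after 1wk WD. Replicates 3 and 4 of 1wk WD were the lowest, and replicate 2 lay within the No Dox range. The log2 change of -0.80 ± 0.27 was not called (adjusted p = 0.124 in limma). MΦs scored 268, 290, 123, and 410 at No Dox, 418 and 428 at 1wk Dox, and 222, 396, 303, and 254 after 1wk WD, with log2 changes of 0.75 ± 0.42 and 0.20 ± 0.34 (adjusted p of 0.335 and 0.801). β cells scored 1782, 493, 452, and 218 at No Dox, 898, 1149, 802, 930, and 1476 at 1wk Dox, and 927, 716, and 779 after 1wk WD. ECs lay above MΦs by 3.84 ± 0.54 at No Dox (adjusted p = 0.000104) and above β cells by 2.73 ± 0.54 (adjusted p = 0.00133). β cells and MΦs did not differ beyond their spread at No Dox (adjusted p = 0.0994), although without β cell No Dox replicate 4 the difference of -1.55 was called (adjusted p = 0.0176). At 1wk WD MΦs lay below β cells by -1.48 ± 0.35 (adjusted p = 0.00246).

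MAdCAM-1 is the address of gut and mucosal venules. Madcam1 (chr10:79127319-79131281, ENSMUSG00000020310) scored 105, 223, 158, and 120 in ECs at No Dox, 615 in the single 1wk Dox library, and 355, 336, 269, 237, and 232 at 1wk WD. All withdrawal libraries lay above all No Dox libraries, as for 5.75% of all genes in this comparison (the groups did not overlap, in either direction, in 10.7%), and the 1wk Dox library was the highest of the 10. The change at 1wk WD was 0.95 ± 0.25 on the log2 scale, a fold of 1.93 (adjusted p = 0.0545 in limma), and so missed both thresholds. Without No Dox replicate 2 it was 1.16 with an adjusted p of 0.0439, and was called. MΦs were listed at 1 in all 4 No Dox libraries, at 2 and 1 at 1wk Dox, and at 1, 8, 1, and 2 at 1wk WD. β cells scored 1, 3, 1, and 16 at No Dox, 110, 19, 8, 1, and 2 at 1wk Dox, and 1, 1, and 30 after 1wk WD. EC libraries lay above those of both other cell types at both time points, without overlap. No fold is given against groups at the lowest score.

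ALCAM links cells by binding itself and CD6. Alcam (chr16:52249109-52454187, ENSMUSG00000022636) scored 21377, 16149, 29069, and 17426 in MΦs at No Dox, 12599 and 13632 at 1wk Dox, and 10188, 11816, 13176, and 14475 after 1wk WD. All libraries of both later time points lay below all No Dox libraries. Groups did not overlap, in either direction, in 30.9% of all genes at 1wk Dox and in 9.24% at 1wk WD. The log2 changes were -0.64 ± 0.22 at 1wk Dox (adjusted p = 0.113 in limma) and -0.73 ± 0.18 at 1wk WD (adjusted p = 0.065), and neither was called. Without No Dox replicates 2 and 4 the change at 1wk WD was -1.02 with an adjusted p of 0.0211, which is a call. ECs scored 82, 412, 94, and 91 at No Dox, 121 at 1wk Dox, and 232, 196, 97, 310, and 145 after 1wk WD, where No Dox replicate 2 was the highest of all. β cells scored 3704, 3786, 6365, and 3320 at No Dox, 3475, 4374, 4368, 2252, and 4192 at 1wk Dox, and 2593, 3642, and 2493 after 1wk WD, the narrowest range of any member in these cells as a ratio of highest to lowest. The order was MΦs, β cells, and ECs at both time points, and each step passed the test without overlap. At No Dox MΦs exceeded β cells by 2.30 ± 0.45 (adjusted p = 0.00114, but 0.078 with weights per cell type), and ECs lay below β cells by -4.98 ± 0.45 (adjusted p = 4.85e-06).

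**Figure D2:**
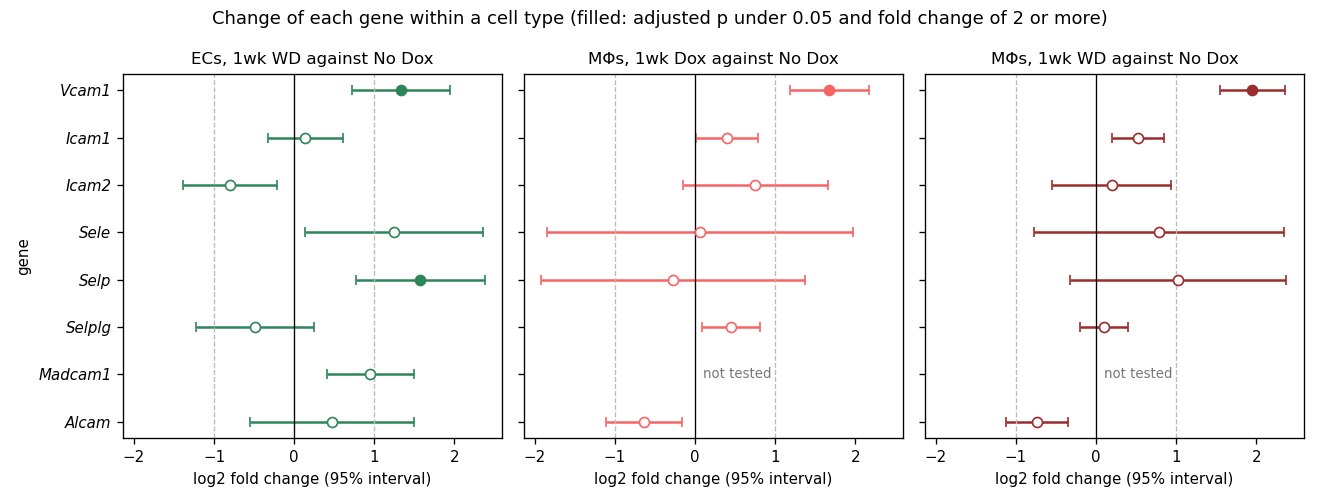
Log2 fold change of each gene against No Dox in ECs at 1wk WD and in MΦs at 1wk Dox and 1wk WD, with 95% intervals from limma; filled points were called, and dashed lines mark a fold change of 2. Vcam1 is filled in all 3 panels, Selp in ECs only, and Madcam1 was not tested in MΦs.

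Marker genes of other cells moved in the ECs along with withdrawal. Pericyte and stromal markers summed to 5879, 10582, 5686, and 12723 at No Dox, 14560 in the 1wk Dox library, and 49356, 20637, 17034, 71053, and 22523 at 1wk WD. Of the 11 genes, 10 were tested and 5 were called higher, Rgs5, Col1a1, Col1a2, Col3a1, and Des. β cell libraries with stromal sums of 26130 to 544937 had Selp scores of 1 to 18 and Vcam1 scores of 183 to 1622. Without 1wk WD replicates 1 and 4, which held the highest stromal sums, Vcam1 in ECs changed by 1.27 (adjusted p = 0.0254 in limma) and was called, and Selp changed by 1.58 (adjusted p = 0.0663) and was not. The part of stromal RNA in the Vcam1 and Selp results was not tested. Acinar markers fell, with all 8 called lower, from sums of 67037 to 1839455 at No Dox to 66922 in replicate 1 and 715 to 1129 in the other 4 libraries of 1wk WD, and their part in the result was not tested. Among the 4 venous markers, Vwf, the granule partner of P-selectin, rose by 1.38 ± 0.26 (adjusted p = 0.0157) and Nr2f2, a transcription factor of venous identity, by 1.67 ± 0.22 (adjusted p = 0.00335). Ephb4 and Ackr1, the other 2, were not called. The summed score of the 4 venous markers in ECs had a median of 13240 at No Dox and 13206 at 1wk WD. In β cells at No Dox this sum was 185, 37, 2573, and 9024 over replicates 1 to 4.

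The EC calls were close to the threshold. Vcam1 and Selp both lost the call without No Dox replicate 1, 3, or 4 or without 1wk WD replicate 3, and Selp also without 1wk WD replicate 2 or 4, with adjusted p-values of up to 0.0811 for Vcam1 and 0.0894 for Selp. Both were also lost with no filter on low scores (adjusted p of 0.157 and 0.195) and with no trend of the spread (0.0747 and 0.0952). Their log2 changes stayed between 1.14 and 1.55 for Vcam1 and between 1.21 and 1.87 for Selp. Without No Dox replicate 2, which held the highest acinar sum of the ECs, 3 members were called, Madcam1 among them.

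**Figure D3:**
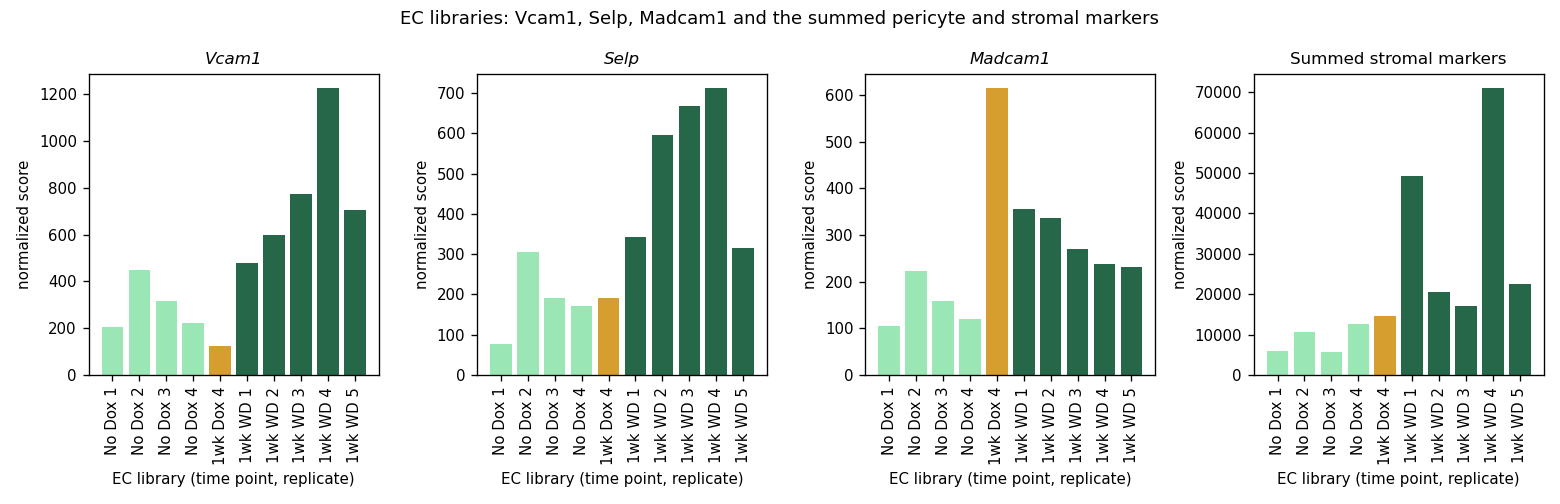
Scores of Vcam1, Selp, and Madcam1 and the summed score of 11 pericyte and stromal markers in each EC library at No Dox (light green), 1wk Dox (yellow), and 1wk WD (dark green), on linear axes that start at 0. The single 1wk Dox library has the lowest Vcam1 score, 122, and the highest Madcam1 score, 615.

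The single 1wk Dox EC library gives values with no spread of its own, and it is the only EC library with a code of the later run. Madcam1 was 4.21-fold above the No Dox mean (log2 difference 2.08) and Vcam1 lay below it, with a log2 difference of -1.22. These were 2 of 8 members past a fold change of 2, as were 10.7% of all genes. Icam1, at 518, lay 0.44 above the No Dox mean on the log2 scale, while Selp, at 191, and Icam2, at 3496, lay within the No Dox range. Vcam1 at 1wk Dox thus lay below the No Dox range in the 1 EC library, where 62.1% of all genes lay outside that range, and above it in both MΦ libraries.

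Withdrawal responses of ECs and MΦs were also compared with each other in 1 fit. For 0 of 8 members did the response differ by the thresholds in limma, against 1.4% of all genes, and 0 differed at an unadjusted p under 0.05. Madcam1 is among the 8 only through its EC scores, and with MΦs at or near the lowest score its value is no test of a difference in response. The EC response of Vcam1 minus that of MΦs was -0.62 ± 0.38 (95% interval -1.42 to 0.19, adjusted p = 0.36), and that of Selp was 0.55 ± 0.73 (-0.98 to 2.08, adjusted p = 0.692). For Alcam the difference was 1.21 ± 0.58 (adjusted p = 0.238), and without EC No Dox replicate 2 it was 1.76 with an adjusted p of 0.043. These intervals are wide, so a difference between the cell types as large as the responses themselves was not detectable for Selp.

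In β cells 4 members, Vcam1, Icam1, Selplg, and Sele, split the No Dox libraries into pairs, and the scores of Sele are given above. Replicates 1 and 2 scored 28 and 5 for Vcam1, while replicates 3 and 4 scored 571 and 1484. Icam1 scored 1 and 13 against 366 and 867, and Selplg scored 10 and 2 against 313 and 497. The 1wk Dox libraries scored 1046, 912, 968, 565, and 183 for Vcam1, 374, 156, 491, 438, and 77 for Icam1, and 185, 211, 142, 867, and 96 for Selplg. At 1wk WD the scores were 1622, 1538, and 447 for Vcam1, 844, 898, and 174 for Icam1, and 1231, 787, and 329 for Selplg. For Vcam1, Icam1, and Selplg the later libraries thus overlapped replicates 3 and 4 and lay above replicates 1 and 2.

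The same pairs stood apart in markers of other cells. Over No Dox replicates 1 to 4, pericyte and stromal markers summed to 1036, 1126, 155303, and 544937, MΦ markers to 889, 528, 3535, and 7112, and the pan-leukocyte gene Ptprc scored 33, 7, 1616, and 1038. The pericyte receptor gene Pdgfrb scored 80, 66, 13692, and 49477. Acinar markers summed to 771275, 33792, 13328880, and 9774887. EC markers summed to 1835 to 7874 at No Dox and to 66356, 22079, 32096, 7063, and 1569 over 1wk Dox replicates 1 to 5, with 0 of 11 genes tested called, and replicate 1 of 1wk Dox also had the highest β cell scores of Sele, Selp, and Madcam1. The part of these cells in the β cell values was not tested.

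Over all 4 No Dox libraries, the log2 change at 1wk Dox was 2.51 ± 1.37 for Vcam1 (adjusted p = 0.744 in limma), 2.20 ± 1.53 for Icam1, and 2.18 ± 1.37 for Selplg. At 1wk WD it was 3.24 ± 1.56 for Vcam1, 3.22 ± 1.74 for Icam1, and 3.84 ± 1.56 for Selplg (adjusted p of 0.61, 0.617, and 0.601). None was called, and only Selplg at 1wk WD had a fold change of 2 or more with an unadjusted p under 0.05. Without No Dox replicates 3 and 4, the 3 genes were called higher at both times, with log2 changes of 5.57, 5.57, and 5.24 for Vcam1, Icam1, and Selplg at 1wk Dox and of 6.30, 6.59, and 6.90 at 1wk WD. Without replicates 1 and 2 the changes at 1wk Dox were -0.56, -1.17, and -0.87, those at 1wk WD were 0.17, -0.15, and 0.79, and 0 members were called. The direction of these 3 genes at 1wk Dox in β cells thus depends on which No Dox libraries are used. Alcam, in contrast, changed by -0.19 ± 0.25 at 1wk Dox and by -0.53 ± 0.29 at 1wk WD (95% intervals -0.75 to 0.36 and -1.16 to 0.097), and Icam2 by 0.92 ± 0.47 and 0.56 ± 0.54. Between 1wk Dox and 1wk WD 0 of 7 members were called in limma, and 0 had an unadjusted p under 0.05, where 0% of all genes were called.

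**Figure D4:**
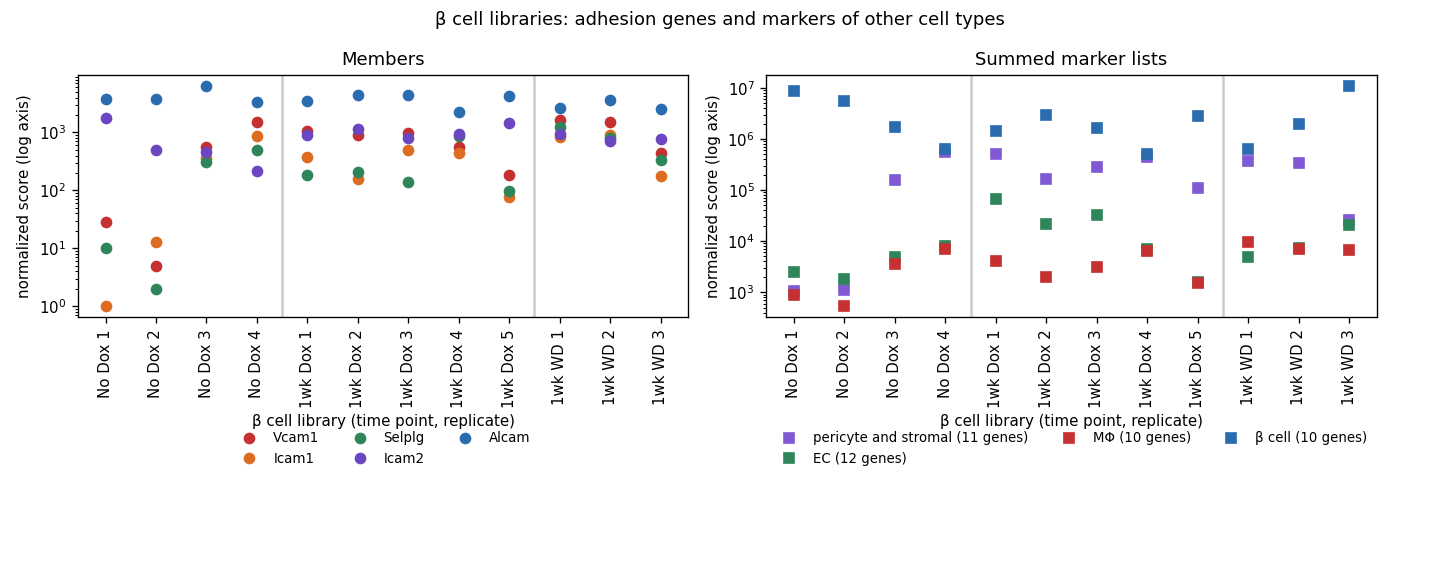
Left, scores of 5 members in each β cell library; right, summed scores of marker lists in the same libraries, both on log axes. No Dox libraries 1 and 2 are the lowest in Vcam1, Icam1, Selplg, and the pericyte and stromal sum, while Alcam stays between 2252 and 6365 in all 12 libraries.

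The integrin chains that bind these molecules had high scores in MΦs and were not called over time. Itgal and Itgb2, the chains of LFA-1, had median scores of 10743 and 15596 in MΦs at No Dox, 11164 and 17355 at 1wk Dox, and 9215 and 14584 after 1wk WD. In ECs their medians were 15.5 and 12.5 at No Dox and 16 and 13 at 1wk WD. Itga4, the chain shared by the receptors of VCAM-1 and MAdCAM-1, had medians of 31445, 35420, and 28157 in MΦs over the 3 time points, and of 136 and 165 in ECs at No Dox and 1wk WD. β cells scored 2354 to 4076 for Itga4. Its partner chains are Itgb1, with MΦ medians of 6006, 6779, and 6355 over the 3 time points, and Itgb7, with 2277, 1795, and 2843. Itgb1, which joins many other integrins, had EC medians of 12422 at No Dox and 11979 at 1wk WD. Itgam, the gene of the CD11b gate, changed in MΦs by -0.70 ± 0.20 at 1wk Dox (adjusted p = 0.0706 in limma) and by -0.65 ± 0.17 at 1wk WD (adjusted p = 0.0782), and Itgax, the chain of CD11c, by 0.070 ± 0.19 and -0.14 ± 0.15. Of 10 leukocyte integrin genes, 0 of 10 tested in MΦs were called at either time and 0 of 6 tested in ECs at 1wk WD.

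Other genes of the pathway were taken from 4 further lists. Of 20 genes of NF-κB and cytokine activation, 19 were tested in MΦs, and 4 were called higher at 1wk Dox: Ccl2 (log2 change 1.21, adjusted p = 0.00867), the neutrophil chemokine Cxcl1 (2.36, 0.0101), Nfkb2 (1.26, 0.0249), and Tnf (1.14, 0.0311). At 1wk WD only Nfkb2 of that list was called, with 1.03 and an adjusted p of 0.0458. In ECs 15 genes of it were tested at 1wk WD and 1 was called, the membrane-bound chemokine Cx3cl1, which fell by 1.00 on the log2 scale (adjusted p = 0.0377). Of 17 other transmigration molecules in the table, F11r, the junctional adhesion molecule JAM-A, fell by 1.65 in MΦs at 1wk Dox (adjusted p = 0.000805), the only call among 16 tested. At 1wk WD its log2 change in MΦs was -0.92 (adjusted p = 0.00703), under the fold threshold, and 0 of 16 were called. L1cam, an adhesion molecule first known from neurons, fell by 1.08 in ECs at 1wk WD (adjusted p = 0.0206), the 1 call among 14 tested. Of 20 selectin ligands and glycosylation genes, Spn, the leukocyte sialophorin CD43, fell by 1.21 in MΦs at 1wk Dox (adjusted p = 0.0169), the 1 call among 17 tested, and 0 of 17 were called in MΦs at 1wk WD and 0 of 15 in ECs. Of 12 membrane anchors and sheddases of adhesion molecules, 0 were called in ECs (10 tested) or in MΦs (11 tested at each time).

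Over the 32 libraries, all members but Sele had other genes of much the same pattern, which mostly follows the 3 cell types. Among 16968 genes the highest Pearson r of log2(score + 1) with Vcam1 was 0.946, of Fam49a, and with Selplg 0.974, of Hmha1. Icam1 was followed by Nr4a3 (0.981), Ifi204 (0.967), and Stx11 (0.962), and Selplg further by Adap1 (0.972). Madcam1 was nearest to Ushbp1 (0.961), Tspan18 (0.957), and Mall (0.948), and Selp to Elf1 (0.963), Gbp9 (0.955), and Gm8979 (0.949). Alcam was nearest to Lass6 (0.982) and to Rbm47 and Frrs1 (0.981 each), and Icam2 to Taok2 (0.932). Sele had no gene above 0.671, the value of Eif1ax. Among the members themselves, Vcam1 and Selplg (0.926), Icam1 and Selplg (0.921), and Vcam1 and Icam1 (0.912) were most alike, and Icam2 and Alcam ran opposite (-0.884). These values describe libraries that share cell types and pooled islets, and no test was made.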

How the data were processed

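RNA of sorted cells was amplified and sequenced by the authors, who aligned paired-end reads to mm9 with TopHat2 2.0, according to the submitters' processing notes, and used Avadis NGS to normalize expression by TMM. Deposited were scores, rounded to whole numbers. Scores are not counts, so no count model was used. Of 38 sample columns, 32 were used. The other 6, which by their names are 3 EC and 3 MΦ samples, carry no label used here and were not analysed. They may be further libraries of 1wk Dox, whose libraries used here are numbered 4 in ECs and 4 and 5 in MΦs. Groups came from the sample labels. Replicates were pools of several mice.

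Here log2(score + 1) was fitted with limma 3.58.1 (R 4.3.3, trend on the mean) over genes with a mean score of 20 or more in one or more groups. β cell and MΦ fits held 3 time points, the EC fit No Dox and 1wk WD, and cell types were compared within a time point. The p-values measure the spread between these pools. The thresholds for fold change, false discovery rate, and expression follow the study, whose z-score test could not be repeated from its description. The fit was tested on simulated data.

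The 8 members and all gene and marker lists were chosen with earlier results of these data known. Named beside the members were list genes that were called (up to 4 per list and comparison), the integrin receptor chains, marker genes beside a result, and genes among the 3 nearest to each member, of which 1 is not reported here. The alternatives were other pseudocounts, filters, and scaling, no trend, a replicate block, weights per cell type, only the groups compared, and leaving out each replicate. Leaving out pairs of libraries that stood apart in markers was added after seeing the data. Promoters were read from a RefSeq table and matched to mm9 with Python 3.11.15.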

Additional observations from a re-analysis of the deposited data

Results flagged for a closer look

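Vcam1 at 1wk Dox moved in opposite directions against No Dox in the EC library and in both MΦ libraries. The difference between the 2 log2 changes was -2.89 for ECs minus MΦs, and it was not tested, since 1wk Dox has a single EC library here. That library and both MΦ libraries carry codes of the later run, which cannot be told apart from 1wk Dox.

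A library far from the others of its group, by Dixon's 95% limit, was seen in 3 of 47 groups of 4 or 5 libraries, where chance gives about 1 in 20. Sele scored 102 in MΦ 1wk WD replicate 1 and 17 to 19 in the other 3. Selplg scored 4641 in the same library, the lowest of its group. Alcam scored 412 in EC No Dox replicate 2 and 82 to 94 in the other 3, and this library also held the highest acinar marker sum of the ECs, 1839455, whose part was not tested.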

How the results depend on the processing

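Of 2205 values of single members under an alternative, 2122 kept their direction and their side of the thresholds or, for the single 1wk Dox EC library, which has no test, moved by less than the spread of the No Dox libraries, and none of the 38 called results reversed. In ECs at 1wk WD against No Dox the 2 calls became 0 with no filter on low scores, 0 with no trend of the spread, 1 without 1wk WD replicates 1 and 4, and 0 to 3 without each replicate in turn. In MΦs at 1wk Dox against No Dox the 1 call became 0 with the replicate block (Vcam1, adjusted p = 0.161) and 0 to 1 without each replicate, and at 1wk WD 1 call became 2 without No Dox replicates 2 and 4. In β cells 0 calls became 3 without No Dox replicates 3 and 4 at 1wk Dox and at 1wk WD. The single 1wk Dox EC library had 2 members past a fold change of 2, 1 past both thresholds in a limma fit that assumes this library to vary like the other ECs, and 1 to 2 without each No Dox replicate. ECs against β cells at No Dox had 4 calls and 2 with a minimum mean of 200, which leaves fewer genes. The difference between the withdrawal responses of ECs and MΦs had 0 calls and 0 to 1 without each replicate. The cause of the other changes was not tested.

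Reversed values were all of uncalled results. In β cells at 1wk Dox without No Dox replicates 1 and 2 they were -1.33 for Sele, -0.56 for Vcam1, -0.87 for Selplg, and -1.17 for Icam1. At 1wk WD they were -0.15 for Icam1 and -0.23 for Madcam1 without the same pair, and 1.18 for Sele and -0.22 for Icam2 without replicates 3 and 4. Icam1 in MΦs at 1wk WD against 1wk Dox was -0.25 with the replicate block, and Sele in ECs against β cells at No Dox -0.21 with a pseudocount of 20. Without each replicate in turn, log2 differences spanned 0 as follows. In the single 1wk Dox EC library Icam2 ran from -0.092 to 0.023, Selp from -0.17 to 0.49, and Alcam from -0.33 to 0.44. In β cells Sele ran from -0.17 to 1.77 and Alcam from -0.30 to 0.011 at 1wk Dox, and Madcam1 from -1.02 to 0.98 at 1wk WD. Icam1 in ECs at 1wk WD ran from -0.031 to 0.26. In MΦs at 1wk Dox Sele ran from -0.097 to 0.24 and Selp from -0.72 to 0.18, at 1wk WD Icam2 from -0.14 to 0.43, and between these times Icam1 from -0.14 to 0.39 and Alcam from -0.17 to 0.00059. For ECs against β cells Vcam1 ran from -0.026 to 2.62 and Sele from -0.80 to 1.14 at No Dox, and Icam1 from -1.06 to 0.13 at 1wk WD. For MΦs against β cells Sele ran from -1.41 to 0.53 at No Dox and Madcam1 from -1.29 to 0.69 at 1wk WD.

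Within a cell type, replicate numbers did not pair the libraries of different time points. Deviations of same-numbered libraries from their group means correlated from -0.48 to 0.339 over 10 pairs of β cells, -0.209 to 0.19 over 4 of ECs, and -0.117 to 0.11 over 6 of MΦs. Whether same-numbered libraries of different cell types came from the same islets was not checked, and the main fits treated them as independent. At 1wk WD replicate 1 held the highest acinar sum in β cells (616090), ECs (66922), and MΦs (220089). At No Dox it was replicate 2 in ECs and MΦs and replicate 3 in β cells. Apart from the MΦ call at 1wk Dox, the block moved no count of calls by more than 1.5 times. Scaling to the median ratio moved the median of all genes by over 0.1 only for ECs against β cells at 1wk WD, by -0.103. Depth is unknown, so low scores such as those of Sele, of Selp in β cells, and of Madcam1 in MΦs have unknown precision.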
